A study of Orestias ascotanensis with 42 samples.

Results

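The question addressed here is whether microRNAs (miRNAs) change with the season in the same way in skin and in gills of Orestias ascotanensis, a small killifish of the salt pan of Ascotán on the high plateau of northern Chile. The comparison uses the 28 skin and gill libraries among the 42 small RNA libraries of the study; the other 14 are from muscle. The libraries were chosen by tissue and by the season in the treatment label. There were 7 each of skin in summer, skin in winter, gills in summer and gills in winter. Adult wild fish were netted on 2 dates, 7 in the summer month and 7 in the winter month. Each of the 14 fish gave both tissues, no tissue was pooled, and the fish of the 2 seasons are different animals. Every library therefore stands for 1 fish and 1 tissue, and all fish were wild and untreated. The titles carry the word summer for every library, so each seasonal direction rests on the treatment label. The effect of season cannot be told apart from that of the collection date. In whole tissue, fewer cells of a type and less RNA per cell cannot be told apart either.

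MiRNAs are short RNAs that guide Argonaute proteins to messenger RNAs, which are then degraded or translated less. Skin and gills are both covered by epithelium and face the surrounding water. The skin is a barrier with keratinocytes and mucous cells, and the gills exchange gas and ions. Many miRNAs exist as families whose members differ by few bases, often with one abundant member and rarer relatives, and a read of one can be counted under the name of another.

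The quantity tested was the difference of 2 seasonal changes on the log2 scale: the change from winter to summer in skin minus that in gills, here called the skin-minus-gill difference. A positive value means that summer was higher relative to winter in skin than it was in gills. Levels are CPM over all names of a library, scaled by the trimmed mean of M-values (scaled CPM), and each is given as the lowest, the median and the highest of 7 libraries. Of 506 names tested, 4 names passed an adjusted p of 0.05 (0.791% of all names), 2 of them positive (0.395%) and 2 negative (0.395%). The test was edgeR's quasi-likelihood F test on counts, with p-values adjusted after Benjamini and Hochberg. They rest on 3 distinct sets of reads, those of miR-31-5p, miR-26d-5p and miR-20b-5p; the fourth name, miR-20b, shares its reads with miR-20b-5p. At an unadjusted p under 0.05 there were 30 names (5.93%). All 3 are rare names of families with a far more abundant member. The counting could place reads of one such name under another, their sequences were not compared here, and each is uncertain as a separate molecule.

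The name miR-31-5p is the spelling of the Atlantic cod entry of miR-31, a miRNA known in mammals from keratinocytes and hair growth. In skin its level was 8.75, 28.2 and 59.4 scaled CPM in summer, against 0, 0.728 and 1.46 in winter. Every skin library of summer lay above every skin library of winter, with 233 to 724 reads in summer and 0 to 17 reads in winter. Here and for the names below, the share of all names without overlap between seasons within a tissue was not counted. In gills the level was 0, 6.32 and 8.25 scaled CPM in summer, against 0.481, 1.095 and 3.40 in winter. The gill groups overlapped through the gill library of summer fish 4, which had no read of this name and the lowest summed count of all 28 libraries, 598084.

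MiR-31-5p rose in summer by 5.25 ± 0.53 (log2, SE; adjusted p = 4.2e-08) in skin and by 2.11 ± 0.48 (adjusted p = 0.015) in gills, by edgeR's quasi-likelihood test. The gill call was lost without winter fish 6 (adjusted p = 0.059, edgeR), without winter fish 7 (adjusted p = 0.063) and in a fit on the 14 gill libraries alone (adjusted p = 0.078); the skin call held in all 14 fits that left out 1 fish. The rise was larger in skin than the gill value: the skin-minus-gill difference was 3.14 ± 0.67 (95% interval 1.76 to 4.52, adjusted p = 0.0086). The difference between skin and gills of the same fish, in log2 of scaled CPM plus 1, was 1.76, 2.22 and 3.28 in summer fish, against -1.23, -0.16 and 0.53 in winter fish. No summer fish overlapped with a winter fish in this measure, which was so for 2 of the 506 names (0.395%), this one and miR-26d-5p.

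The abundant name of the family, miR-31, did not pass. Its seasonal value was 0.66 ± 0.32 in skin (adjusted p = 0.42, edgeR) and -0.01 ± 0.32 in gills (adjusted p = 0.998, edgeR). Its skin level was 106.2, 296 and 419 scaled CPM in summer, against 80.7, 133.1 and 340 in winter. Its gill level was 111, 291 and 340 scaled CPM in summer, against 234, 251 and 437 in winter. Both pairs of groups overlapped, and its skin-minus-gill difference was 0.67 ± 0.45 (adjusted p = 0.95, edgeR). The 2 names are counted in the same library, so their ratio does not depend on scaling between libraries. In skin, the reads of miR-31-5p came to 6.73%, 8.92% and 15.6% of those of miR-31 in summer, against 0%, 0.43% and 0.913% in winter. In gills they came to 0%, 2.02% and 2.83% in summer, against 0.205%, 0.389% and 0.779% in winter. When each species entry was fitted as its own feature, the channel catfish entry of miR-31 gave a skin-minus-gill difference of 3.36 ± 0.64 (adjusted p = 0.0042, edgeR). The zebrafish and medaka entries gave 1.04 ± 0.37 and 1.03 ± 0.37 (adjusted p = 0.54 for both, edgeR). In skin alone these 2 entries had seasonal values of 1.00 ± 0.26 and 0.94 ± 0.26 (adjusted p = 0.054 for both, edgeR). In gills they had -0.04 ± 0.26 and -0.10 ± 0.26. The family thus had entries that passed and entries that did not in the same libraries.

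**Figure D1:**
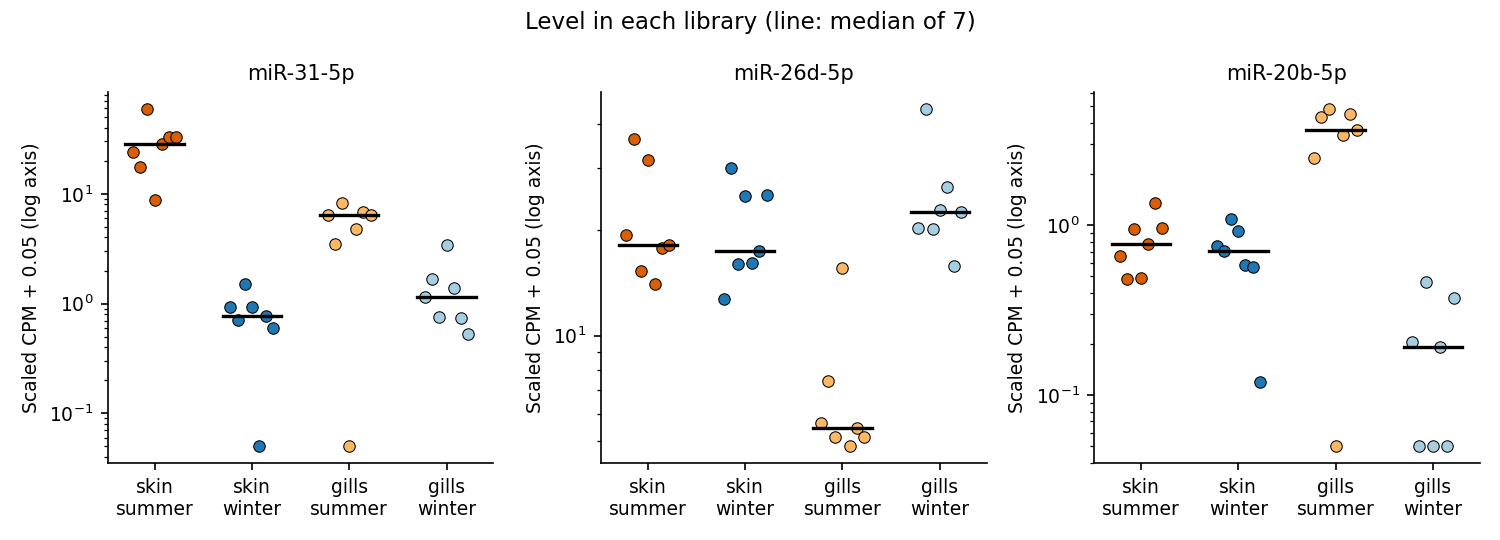
Level of the 3 read sets that passed, in scaled CPM plus 0.05 on a log axis, with 1 point per library and a line at the median of 7. For miR-31-5p the skin libraries of summer all lie above those of winter, for miR-26d-5p the gill libraries of summer all lie below those of winter, and for miR-20b-5p 6 of the 7 gill libraries of summer lie above all others. The share of all names without such overlap was not counted.

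MiR-26d-5p carries the name of the salmon entry of a member of the miR-26 family, a family known in mammals for restraining cell proliferation. In skin its level was 14.0, 18.04 and 36.1 scaled CPM in summer, against 12.7, 17.4 and 29.9 in winter. The skin groups overlapped over nearly their whole range. In gills its level was 4.79, 5.42 and 15.6 scaled CPM in summer, against 15.7, 22.4 and 44.1 in winter. The gill groups did not overlap, but the highest summer library, again that of fish 4 with only 8 reads of this name, came close to the lowest winter library.

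MiR-26d-5p fell in gills by 1.96 on the log2 scale (SE 0.30, adjusted p = 6.1e-05, edgeR). In skin the value was 0.10 ± 0.28 (adjusted p = 0.98, edgeR). The skin-minus-gill difference was 2.06 ± 0.40 (95% interval 1.23 to 2.88, adjusted p = 0.0033, edgeR's quasi-likelihood test). The skin minus gill difference of single fish was 0.98, 1.54 and 2.15 in summer, against -0.69, -0.31 and 0.15 in winter, on the scale of log2 of scaled CPM plus 1. In summer every fish had more of this name in skin than in gills.

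The abundant relative miR-26a-5p had a skin-minus-gill difference of 0.12 ± 0.23 (adjusted p = 0.997, edgeR). Reads of miR-26d-5p were a small share of those of miR-26a-5p in every library. In gills the share was 0.103%, 0.114% and 0.277% in summer, against 0.301%, 0.369% and 0.74% in winter. In skin it was 0.214%, 0.256% and 0.374% in summer, against 0.206%, 0.249% and 0.296% in winter. The gill ranges did not overlap and the skin ranges did. The call was lost when every species entry was fitted as its own feature, with a value of 1.93 ± 0.47 and an adjusted p of 0.054 (edgeR). The Nile tilapia entry named miR-26d, which counts other reads, gave 0.23 ± 0.95 (adjusted p = 0.97, edgeR).

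MiR-20b-5p belongs to the miR-17 family, whose clusters are known for promoting cell proliferation. In skin it had 0.432, 0.725 and 1.30 scaled CPM in summer, against 0.0691, 0.659 and 1.03 in winter. The gill level was 0, 3.56 and 4.79 scaled CPM in summer, against 0, 0.142 and 0.411 in winter. The gill libraries of 6 summer fish held 40 to 184 reads each, while fish 4 had none. The gill libraries of winter held 0 to 10 reads. The 6 gill libraries of summer with reads lay above all gill libraries of winter.

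MiR-20b-5p rose in gills by 4.15 ± 0.51 (log2, SE; adjusted p = 1.8e-06, edgeR). In skin the value was 0.27 ± 0.45 (adjusted p = 0.98, edgeR). Among gill libraries this name was high only in summer, so its gill rise is not independent of the filter on low counts. In a fit with no such filter the gill rise of miR-20b-5p still passed (edgeR). The skin-minus-gill difference was -3.88 ± 0.68 (95% interval -5.27 to -2.49, adjusted p = 0.00097, edgeR's quasi-likelihood test). Without summer fish 4 it was -3.76. The skin minus gill difference of single fish was -1.88, -1.26 and 0.53 in summer, against -0.30, 0.56 and 0.91 in winter. These ranges overlapped.

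The abundant relative miR-20a-5p had a skin-minus-gill difference of -0.30 ± 0.55 (adjusted p = 0.997, edgeR). In gills the reads of miR-20b-5p came to 0%, 3.89% and 4.68% of those of miR-20a-5p in summer, against 0%, 0.154% and 0.34% in winter. In skin they came to 0.942%, 1.44% and 2.85% in summer, against 0.21%, 1.45% and 3.39% in winter. The channel catfish entry of miR-20a, also rare beside miR-20a-5p, gave -0.01 ± 0.53 (adjusted p = 0.99, edgeR). That entry, with 220 reads in gills of summer and 67 in gills of winter, was not past the threshold in either tissue. The zebrafish entry of miR-20b-5p had 692 and 13 reads there, so the 2 entries were not equally rare.

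**Figure D2:**
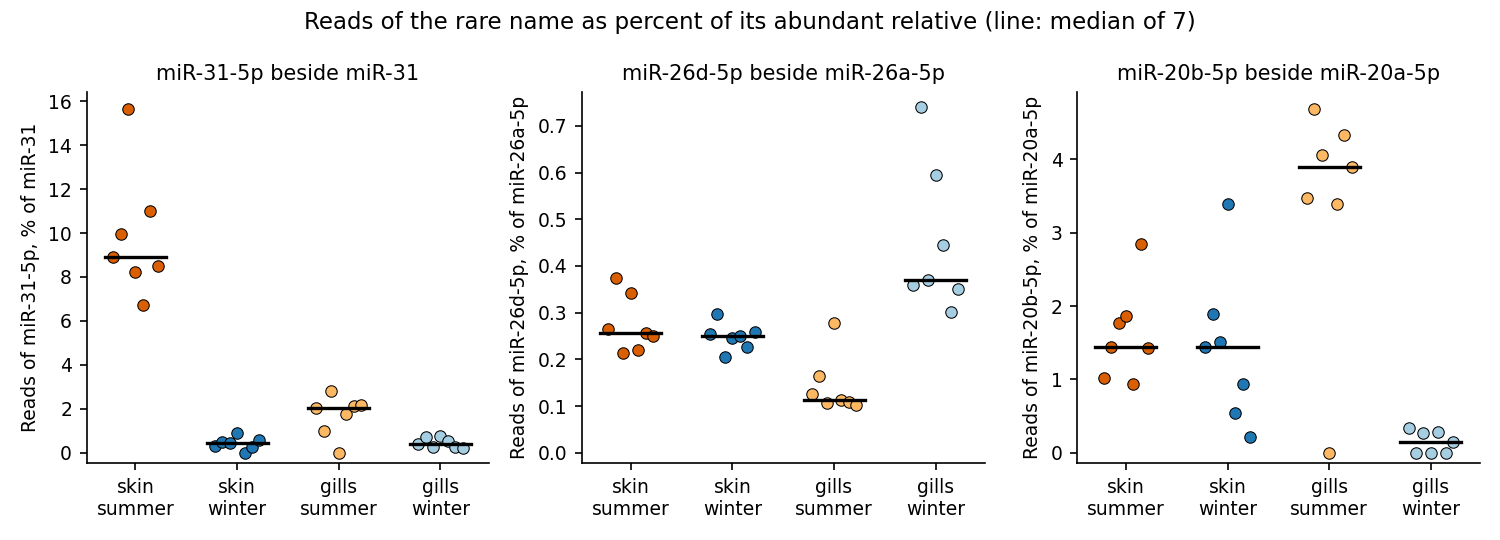
Reads of each of the 3 names as a percent of the reads of its abundant relative in the same library, on linear axes, with 1 point per library and a line at the median of 7. The median share was 8.92% in skin of summer and 0.43% in skin of winter for miR-31-5p, and 3.89% in gills of summer and 0.154% in gills of winter for miR-20b-5p.

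These calls have limits. An exact permutation test over fish of the within-fish differences (two-sided, 3432 splits) gave p = 0.000583, the smallest it can give, for miR-31-5p and miR-26d-5p, and p = 0.0017 for miR-20b-5p. Its splits, and those for the library measures below, took no account of the batch number. After adjustment over 506 names none passed by this test (lowest adjusted p 0.15; 33 names at an unadjusted p under 0.05). Even its smallest p passes this adjustment only where several names have p-values about as low, so the adjustment decides little here. The gill libraries of summer were also deeper than those of winter, with a median summed count of 20423114 against 4947715. The part of depth in these results was not tested.

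Within each tissue few names passed the adjusted p of 0.05. In skin, 3 of 506 names passed (0.593%): miR-31-5p rose (0.198%), and miR-100a-2-3p and miR-100b-5p fell (0.395%); 57 names had an unadjusted p under 0.05 (11.3%). In gills, 5 names passed (0.988%): miR-31-5p, miR-20b-5p and miR-20b rose (0.593%), and miR-26d-5p and miR-100a-2-3p fell (0.395%); 41 had an unadjusted p under 0.05 (8.1%). These are edgeR counts over the same fit. The skin count was 14 without summer fish 4, 14 without winter fish 5 and 6 without winter fish 6. The gill count was 15 with DESeq2, 9 with DESeq2's size factors and 1 in a fit on the 14 gill libraries alone. The name kept there was miR-26d-5p; miR-31-5p had 2.09 ± 0.46 (adjusted p = 0.078, edgeR) and miR-20b-5p was below the filter on low counts.

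MiR-100 is a member of a conserved family encoded beside let-7. The abundant miR-100 itself had a seasonal value of 0.29 ± 0.27 in skin (adjusted p = 0.97, edgeR) and 0.25 ± 0.27 in gills (adjusted p = 0.998, edgeR), so neither passed. The 4 tested members of the miR-99/100 list were all positive in both tissues, and 2 rare names, chosen because they passed within a tissue, were negative in both. MiR-100b-5p had 1.88, 4.22 and 26.7 scaled CPM in skin of summer, against 22.5, 52.2 and 71.8 in skin of winter. Gill libraries had 1.95, 5.13 and 80.3 scaled CPM in summer, against 66.2, 80.3 and 104 in winter. In each tissue 1 summer library or more reached into the winter range. MiR-100b-5p fell in skin by 2.71 on the log2 scale (SE 0.64, adjusted p = 0.033, edgeR), and its gill value was -2.39 ± 0.63 (adjusted p = 0.059, edgeR). The skin call was lost in 8 of the 14 fits that left out 1 fish, those without summer fish 3, 5, 6 or 7 and without winter fish 1, 2, 3 or 4 (adjusted p from 0.056 to 0.10, edgeR). The skin-minus-gill difference was -0.32 ± 0.85, with a 95% interval of -2.06 to 1.41. MiR-100a-2-3p, the other arm of a miR-100 precursor, had 5 reads over all skin libraries of summer, against 73 in skin of winter. In gills it had 8 reads in summer, against 53 in winter. It fell by 4.11 in skin (SE 0.75, adjusted p = 0.0018, edgeR) and by 3.87 in gills (SE 0.75, adjusted p = 0.002, edgeR), and both calls held in all 14 fits that left out 1 fish. In skin, DESeq2 gave this name no adjusted p, and it was below the filter in a fit on the 14 skin libraries alone. In gills, it was not among the names that passed in a fit on the 14 gill libraries alone. With so few summer reads, this name met the count filter of the main fit mainly through winter libraries, where it was high. Its fall is therefore not independent of that filter. The skin-minus-gill difference was -0.24 ± 1.27. Its interval of -2.85 to 2.36 leaves differences of several log2 units in either direction undetected at these counts.

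**Figure D3:**
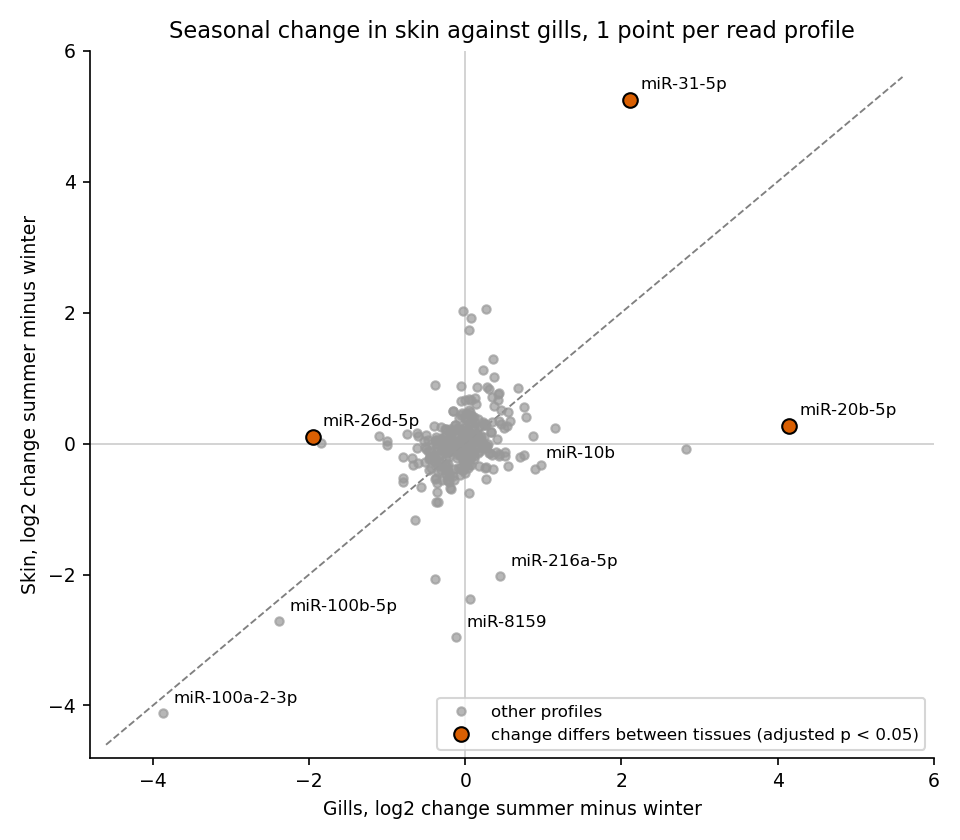
Seasonal change (log2, summer minus winter) in skin on the vertical axis against gills on the horizontal axis, with 1 point for each of 288 distinct read sets and a dashed line where both tissues change alike. The 3 read sets that passed (orange) lie off the line, and miR-100b-5p and miR-100a-2-3p lie close to it at the lower left; the point at a gill value of 2.82 is miR-196b-5p, whose gill libraries held 9 reads in summer and 0 in winter, so its size is not estimated.

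Over the 288 distinct read sets the skin-minus-gill difference had a median of 0.05 and quartiles of -0.24 and 0.34. The seasonal values of skin and gills had the same sign in 175 read sets and opposite signs in 113. Across read sets Pearson's r between the 2 tissues was 0.44 and Spearman's rho 0.38; the tissues come from the same fish, and read sets are not independent replicates. The median half-width of the 95% interval was 0.95 on the log2 scale. Of the 108 read sets with a mean of at least 100 scaled CPM, 0 passed (by edgeR), with values from -1.28 to 0.93. In 52 of these 108 the whole interval lay within 1 log2 unit of 0. For the rest, a change that differs 2-fold between tissues was not excluded by the interval.

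The miRNA of highest mean level in all 4 groups, miR-10b, is encoded in a Hox gene cluster. Its skin level was 125069, 182756 and 410586 scaled CPM in summer, against 167992, 264358 and 392207 in winter. Its gill level was 25301, 48563 and 175659 scaled CPM in summer, against 22284, 32784 and 69964 in winter. Both pairs overlapped, the summer median being the lower of the 2 in skin and the higher in gills. The skin-minus-gill difference was -1.28 ± 0.52 (95% interval -2.35 to -0.21; adjusted p = 0.65, edgeR), and it was -0.78 without summer fish 4, whose gill library had the highest gill level.

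The other names of smallest p did not pass either, with adjusted p from 0.65 to 0.80 (edgeR). MiR-462b-5p, of a fish family known to respond to low oxygen and viral infection, had 2.06, 3.36 and 5.86 scaled CPM in skin of summer, against 2.31, 4.64 and 7.56 in skin of winter. Its gill level was 13.8, 24.4 and 56.4 scaled CPM in summer, against 8.17, 9.66 and 25.97 in winter. The groups overlapped in both tissues and the difference was -1.30 ± 0.47. MiR-24a, of the miR-23/24/27 clusters, had 163, 177 and 208 scaled CPM in skin of summer, against 131, 181.9 and 211.5 in skin of winter. In gills it had 111, 162 and 179 scaled CPM in summer, against 188, 214.1 and 241 in winter. The gill groups of miR-24a came close without overlapping, at 179 in summer and 188 in winter. The share of all names without overlap in gills was not counted. Its gill value, that of miR-24a, was -0.43 ± 0.13 (adjusted p = 0.14, edgeR). Its skin-minus-gill difference was 0.43 ± 0.18. MiR-27c of the same clusters had 4767, 7815 and 10066 scaled CPM in gills of summer, against 8288, 12911 and 15292 in gills of winter, and a difference of 0.55 ± 0.28.

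MiR-725-3p, a fish miRNA, had 628, 2384 and 3851 scaled CPM in skin of summer, against 574, 1115 and 2374 in skin of winter. Gill libraries had 469, 1763 and 2063 scaled CPM in summer, against 1159, 1603 and 2202 in winter. The groups overlapped in both tissues, and the skin-minus-gill difference was 0.93 ± 0.47. MiR-25 had a difference of 0.48 ± 0.23, miR-153a of 1.22 ± 0.51, miR-96 of 0.72 ± 0.36 and miR-24a-3p of 0.41 ± 0.20. Without winter fish 4 the values of miR-25, miR-153a and miR-96 were 0.30, 0.69 and 0.43. MiR-10545 had -0.90 ± 0.42 and miR-15e-5p -0.93 ± 0.46. MiR-7 and miR-7b, of a family known from neurons and endocrine cells, had 1.85 ± 0.83 and 1.69 ± 0.85, and 0.96 and 0.88 without summer fish 5. MiR-196b-5p, encoded in a Hox cluster, had 5.08, 6.65 and 7.73 scaled CPM in skin of summer, against 3.34, 6.87 and 9.45 in skin of winter. In gills it had 9 reads over the 7 libraries of summer, against 0 reads in winter, so no fold is given for gills.

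In 3 further names the value moved by over 1.5 times without winter fish 1, whose skin library stood apart. MiR-216a-5p and miR-217, known from the pancreas of vertebrates, had 13.9 and 22.1 scaled CPM in the skin library of winter fish 1. The other 6 skin libraries of winter had at most 1.32 scaled CPM of miR-216a-5p. The same library had the highest level of miR-8159 in skin, 621 scaled CPM, beside a median of 18.9 in winter. MiR-122, known from liver, and miR-192, known from gut and liver, also had their highest winter skin levels there, 79.8 and 2274 scaled CPM, beside medians of 1.66 and 407. The skin-minus-gill differences of miR-216a-5p, miR-217 and miR-8159 were -2.48 ± 0.84, -1.68 ± 0.88 and -2.84 ± 1.36. Without winter fish 1, both libraries left out, they were -1.14, -0.05 and -1.04. MiR-216a-5p was also highest among gill libraries in summer fish 4, at 3.89 scaled CPM.

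**Figure D4:**
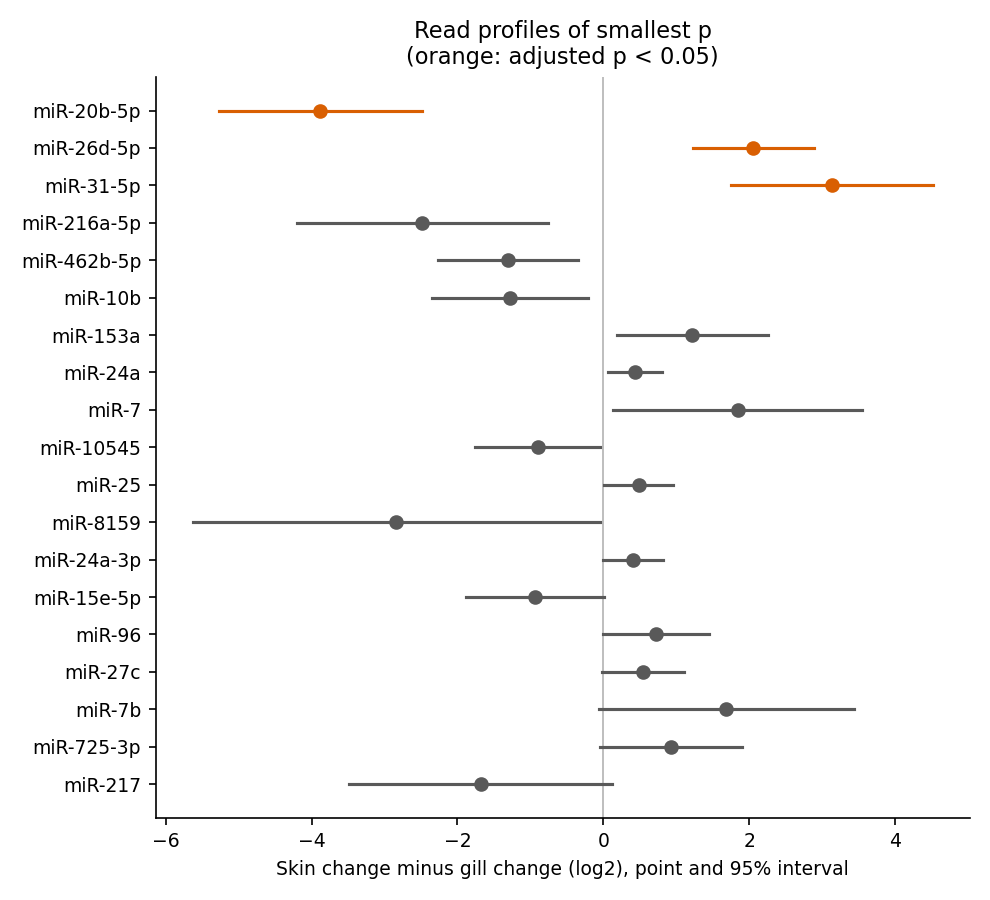
Skin-minus-gill difference of the seasonal change (log2) with its 95% interval for the 20 read sets of smallest p, leaving out miR-196b-5p. The 3 in orange passed the adjusted p of 0.05; the intervals of the others include 0 or end within 0.76 of it.

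Lists of miRNAs known for a cell type, a process or a shared family covered 24 groups. Of their tested members 1 passed (0.8%), which was miR-20b of the proliferation clusters, close to the 0.791% over all names. The median skin-minus-gill difference over all 506 names was 0.03. Scaling by library totals alone, without the trimmed mean, moved this median to 0.46 and changed the sign of 10 of the 24 list medians; relative to the median of all names, 1 list changed side.

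The epithelial and keratinocyte list holds the miR-200 family, miR-203 and miR-205, which are known from epithelium and epidermis. None of its 7 members, which are 6 read sets, passed. The median was 0.25 and 7 of 7 values were positive, or 6 of 7 with DESeq2's size factors, while 264 of all 506 names were positive. MiR-203 had 760, 2629 and 4571 scaled CPM in skin of summer, against 513, 760 and 2715 in skin of winter. In gills it had 1469, 4152 and 7662 scaled CPM in summer, against 2028, 3955 and 4717 in winter. The groups overlapped in both tissues, and the skin-minus-gill difference of miR-203 was 0.90 ± 0.56 (adjusted p = 0.95, edgeR). The summed list took 1.89%, 3.44% and 5.36% of counts in skin of summer, against 1.19%, 2.21% and 3.96% in skin of winter. In gills it took 2.39%, 7.86% and 9.74% in summer, against 5.12%, 8.96% and 10.7% in winter.

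No member passed in the lists for other cell types that dissected skin and gills can hold. Some members share reads, so 1 read set can count more than once in a list median. The 4 endothelial members are 2 read sets, with miR-126, miR-126a and miR-126b each at -0.05 and miR-221 at 0.24. The 5 cartilage and fibroblast members are 4 read sets and the 11 neural members 10. The median differences were 0.15 for muscle (6 members), -0.33 for white blood cells (5), -0.40 for red blood cells (2), -0.09 for pigment cells (1), 0.27 for smooth muscle (2), 0.30 for cartilage and fibroblasts (5), -0.05 for endothelium (4) and 0.26 for neural cells (11). MiR-202, known from gonads, had 0.549, 19.4 and 62.1 scaled CPM in skin of summer, against 0, 1.41 and 27.4 in skin of winter, and at most 7 reads in any gill library; its skin-minus-gill difference was 1.79 ± 2.50 (adjusted p = 0.997, edgeR). MiR-142 of the white blood cell list had 132.01, 229 and 429.3 scaled CPM in skin of summer, against 245, 334 and 573 in skin of winter. Its skin-minus-gill difference of -0.51 ± 0.35 was the lowest of that list. The highest was 0.53 ± 0.35 for miR-146a-5p, of higher mean level (3728 against 441 scaled CPM). Of the 5 tested members 3 were negative and 2 positive. The summed white blood cell list had a median share of 1.05% in skin of summer and 0.726% in skin of winter. On scaled counts the median seasonal value of its 5 members in skin was -0.33. All list shares are of unscaled counts, of which the Hox cluster list took a median of 54.3% in skin of summer and 63.2% in skin of winter. In gills the median share of the white blood cell list was 2.17% in summer and 2.62% in winter. The muscle list holds miR-1 only as miR-1-5p, with a mean of 0.766 scaled CPM. Any other arm of miR-1 is in neither the median nor the share of this list, which is not all muscle miRNA. The list took 0.854%, 1.20% and 1.69% of counts in skin of summer, against 0.772%, 0.935% and 1.67% in skin of winter. In gills the muscle list took 0.081%, 0.107% and 0.134% in summer, against 0.0822%, 0.146% and 0.179% in winter. Red blood cell miRNAs had a median share of 0.0391% in skin of summer, 0.0283% in skin of winter, 0.731% in gills of summer and 0.559% in gills of winter.

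The lists on function showed no member that passed apart from miR-20b. Here too some members share reads. The 14 members of the proliferation clusters are 12 read sets, the 6 lipid and endocrine members 5, and the 4 p53 and gut members 3. The medians were 0.33 for hypoxia (3 members), -0.09 for osmotic stress (6), -0.15 for sensory miRNAs (3), 0.05 for let-7 (10), -0.15 for the proliferation clusters (14), 0.18 for lipid and endocrine miRNAs (6) and 0.05 for p53 and gut miRNAs (4). In the hypoxia list miR-462, the member of highest mean level (3928 scaled CPM), had -0.65, while miR-210 had 0.33 and miR-731 0.37. The summed hypoxia list had a median share of 0.405% in skin of summer and 0.311% in skin of winter. In gills its median share was 3.10% in summer and 1.84% in winter. For the osmotic stress list, which bears on a salt pan fish, the values ran from -0.30 to 0.31. By family, the medians were -0.58 for the Hox cluster miRNAs (6), 0.39 for miR-23/24/27 (8), -0.05 for miR-15/16 (7), -0.03 for miR-181 (4), -0.06 for miR-99/100 (4), -0.75 for miR-125 (3) and 0.13 for miR-26/31 (3). The last list holds miR-26a, miR-26b and miR-31, and not miR-26d-5p and miR-31-5p, which passed. In the miR-181 list the name miR-181c had 0.09 (adjusted p = 0.997, edgeR). The zebrafish and channel catfish entries of miR-181c passed when each species entry was fitted as its own feature (1.95, adjusted p = 0.0315 for both, edgeR). The number of read sets was 5 for Hox, 6 for miR-23/24/27, 4 for miR-15/16, 2 for miR-181, 3 for miR-99/100 and 2 for miR-125. MiR-125a and miR-125b share a read set at -0.75, and miR-125c had -0.35. Every member of the Hox and miR-125 lists had an adjusted p of 0.65 or more (edgeR).

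**Figure D5:**
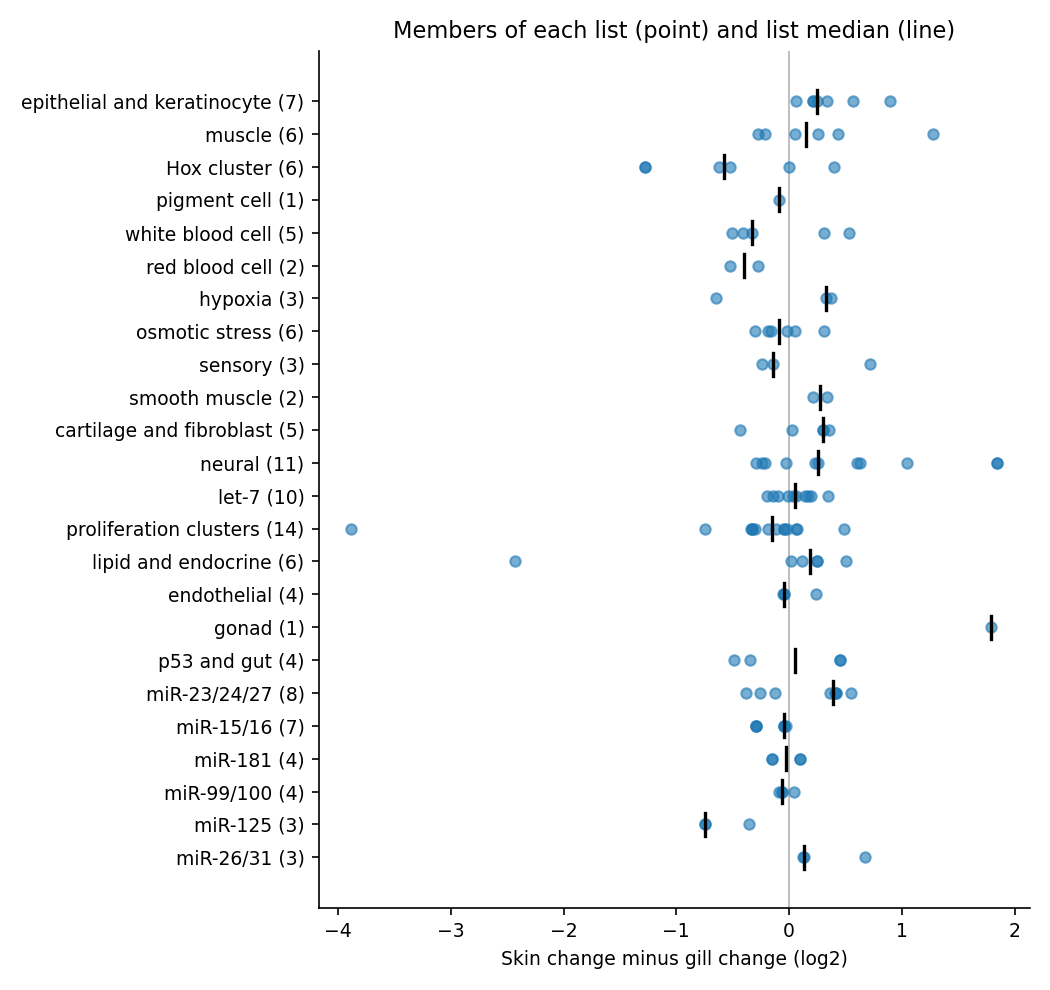
Skin-minus-gill difference (log2) of each tested list member (points) with the list median (black line) and the number of members in brackets. Members that share reads are separate points. Most members lie within 1 log2 unit of 0, and the point at -3.88 is miR-20b.

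Whole-library measures were compared within fish. The share of counts taken by the 10 most abundant names was 74.0% ± 6.09 in skin and 52.95% ± 11.8 in gills of summer (SD, n = 7 each). In winter it was 78.8% ± 4.66 in skin and 46.5% ± 5.14 in gills (SD, n = 7 each). The skin minus gill difference within fish averaged 21.0 points in summer and 32.3 points in winter, positive in 6 of 7 summer fish and 7 of 7 winter fish. The seasons differed by -11.3 points (exact permutation p = 0.12, adjusted over 3 measures 0.35, two-sided). Names that share reads count more than once in this share. With 1 name per read set the within-fish difference averaged 13.9 points in summer and 19.2 in winter, positive in 7 of 7 fish of each season. The seasons then differed by -5.3 points (exact permutation p = 0.20, unadjusted, two-sided). The count of names at 10 or more reads gave -17.7 (exact permutation p = 0.75; 34 with the direction reversed and exact permutation p = 0.0076, unadjusted, when counted at 10 or more CPM) and the log2 summed count -1.06 (exact permutation p = 0.34). None of the 3 measures passed in its first definition.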

How the data were processed

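Small RNA was size-selected on denaturing gels, libraries were made with the TruSeq Small RNA kit, and read 1 of NextSeq pairs was used, per the labels' protocols. The deposited tables hold whole read counts per mature miRNA and precursor, per the file headers; the authors' CPM values in the same tables, deposited beside the counts, entered no test. The tables have the columns of a miRDeep2 quantifier output; for the aligner, the miRNA release and filters the sources used here give nothing. Names carry 13 species prefixes. Many names have equal or nearly equal counts, so a read matching several names appears to have been counted for each, though no source states this. Of the 3527 rows common to all tables, the row with the highest count was kept per name and library (1342 names, 669 with a read). The 3599 rows of gills winter 1 include names found in no other table, which were left out. Read sets (411) join names whose counts differ, summed over the 28 libraries, by at most 5 percent.

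Summed counts over names ran from 11091382 to 36093916 in skin of summer, 11141123 to 22564248 in skin of winter, 598084 to 27067509 in gills of summer and 1196380 to 12778743 in gills of winter. None of 84 pairs of libraries within groups was identical (lowest chi-square per degree of freedom 46.2), so each was 1 replicate.

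The count test was edgeR 4.0.16 under R 4.3.3 (4 groups, TMM scaling, filterByExpr with minimum count 10 and total 15, quasi-likelihood test, Benjamini-Hochberg adjustment over 506 names). SE was derived from the log2 change and F. The scripts were tested on simulated data. Alternatives used DESeq2 1.42.0, limma 3.58.1, other scalings and filters, and left out each fish.

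The 2 tissues of a fish are paired by the animal. The correlation of their deviations from group means had a median of 0.12 (-0.50 to 0.62) and exceeded 0.1 in 7 of 14 fish. A batch label from 1 to 7 equals the fish number in both seasons; the sources used here do not say what it marks. Same-numbered libraries of the 2 seasons had a median correlation of 0.73 in skin (-0.41 to 0.86, over 0.1 in 5 of 7) and 0.65 in gills (-0.37 to 0.78, over 0.1 in 4 of 7). Both blocks were alternatives.

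Named were the read sets past the threshold, those of smallest p up to 20, the 10 of smallest p per tissue, and list members. MiR-20b-5p and miR-31-5p lie under the rule's mean of 10 CPM and were named after their values were seen. The comparison and the lists were chosen with earlier results of these data known.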

Additional observations from a re-analysis of the deposited data

Results flagged for a closer look

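The seasonal change differed between skin and gills by the test of the difference itself for miR-20b-5p (-3.88), miR-26d-5p (2.06) and miR-31-5p (3.14, all log2, edgeR's quasi-likelihood test).

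Single libraries stood apart from the other 6 of their group by Dixon's test in 21 of 92 groups of values examined. Chance flags about 1 in 20 where groups are independent and not chosen from the data. Most groups here are of the 20 names of smallest p, chosen from these data, and many flags fall on the same library. That rate is therefore no yardstick for the count. Levels below are scaled CPM, compared on the scale of log2 of scaled CPM plus 1. The gill library of summer fish 4, the shallowest, had the lowest summed count of its group (19.2 in log2) and the fewest names with at least 10 reads (241). It stood apart for miR-20b-5p, miR-31-5p and miR-10545, each at 0, miR-26d-5p at 15.6, miR-216a-5p at 3.89, miR-24a at 111, miR-24a-3p at 123, miR-27c at 4767 and miR-725-3p at 469. The skin library of the same fish stood apart for miR-725-3p at 628. The skin library of winter fish 1 stood apart for miR-216a-5p at 13.9, miR-217 at 22.1, miR-8159 at 621 and miR-153a at 0.615. The gill library of winter fish 4 stood apart for miR-153a at 7.52, miR-25 at 1631 and miR-96 at 15.4. The skin library of winter fish 5 stood apart for miR-7 at 3.20 and miR-7b at 2.84.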

How the results depend on the processing

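The same 4 names passed the skin-minus-gill difference in 24 of 25 alternatives that test names with edgeR, DESeq2 or limma; with 1 name per read set 3 passed, since miR-20b and miR-20b-5p become 1. Leaving out each fish in turn gave 4 to 4 names. With the fish as replicate block 4 names passed, with the batch number as replicate block 4, and with limma-voom and fish as random block 4, so the pairing changed no call. The exact permutation over fish gave 0 names past adjustment, as 2 of 506 names reached its smallest p, with mean differences of -1.62 for miR-20b-5p (adjusted p = 0.22), 1.78 for miR-26d-5p and 2.74 for miR-31-5p (adjusted p = 0.15 for both). With species entries as features, added after seeing the data, 10 of 2134 entries passed: 6 of miR-20b, the cod and catfish entries of miR-31, and the zebrafish and catfish entries of miR-181c (1.95). Within skin the count was 5 with 1 name per read set and 2 to 14 on leaving out fish, also added later. Within gills it was 9 with DESeq2's size factors, 15 with DESeq2, 1 with only the gill libraries and 4 to 7 on leaving out fish; with the batch number as replicate block it was 6. The miR-31-5p call in gills was lost without winter fish 6 or 7, and that of miR-100b-5p in skin in 8 of 14 fits that left out 1 fish. The causes were not tested. MiR-217 turned to 0.041 with DESeq2 (adjusted p = 0.99), and 541 other values kept direction and side. Counting names with at least 10 CPM in place of 10 reads turned the library measure to 34, from -3.0 within fish in summer and -37.0 in winter (exact permutation p = 0.0076). The rare names rest on few reads: miR-20b-5p had 0 to 10 reads in each gill library of winter.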
